A study of Homo sapiens with 5 samples.

Results

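The 7 ribosomal protein genes RPLP0, RPS3, RPL3, RPS6, RPL5, RPL11 and RPS24 were examined for peaks of ASXL1, FOXK1 and O-GlcNAc on chromatin of the human embryonic kidney line Flp-In HEK293 T-REx, which has a site for inserted transgenes and makes the tetracycline repressor. The genes were taken by name, and a peak belonged to a gene when its nearest edge lay within 5 kb of the gene start on hg19. This gave 51 of the 194759 peaks in the 3 lists, with 31 of 94237 for ASXL1, 5 of 21697 for FOXK1 and 15 of 78825 for O-GlcNAc. Each target was mapped by chromatin immunoprecipitation with sequencing (ChIP-seq) in 1 library, with antibodies from Santa Cruz (ASXL1), Abcam (FOXK1) and Novus (O-GlcNAc). The ASXL1 and O-GlcNAc libraries used chromatin preparation 63 and the FOXK1 library preparation 62, each called against the input of its own preparation. With 1 library per antibody no value below has a replicate error and no test was made, and FOXK1 and its preparation cannot be told apart. Sequencing depth is unknown, so a gene without a listed peak is not shown to lack the target.

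Ribosomal proteins and ribosomal RNA make up the ribosome, and their genes are among the most highly transcribed in growing cells. Most carry a run of pyrimidines at the start of transcription, which gives their messenger RNAs a 5′ terminal oligopyrimidine tract through which mTOR signalling controls translation. ASXL1 works with the deubiquitinase BAP1, which removes ubiquitin from histone H2A. FOXK1 is a forkhead transcription factor that can associate with BAP1. O-GlcNAc is a single sugar that the enzyme OGT attaches to serine and threonine of nuclear proteins, among them BAP1 partners and RNA polymerase II.

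All 7 gene starts lay under an ASXL1 peak and under an O-GlcNAc peak, and 3 of 7 (RPS3, RPL5 and RPS24) also lay under a FOXK1 peak. At a score of at least 100, or with each list cut to its top 10000 peaks by score, FOXK1 covered 2 of 7 starts, without RPS24, while ASXL1 and O-GlcNAc still covered 7. Over the whole genome, read at positions 1 kb apart on chromosomes 1 to 22 and X, a position lay under an ASXL1 peak in 1.30% of cases, under an O-GlcNAc peak in 0.827% and under a FOXK1 peak in 0.387%. Counted within 5 kb, the counts were again 7 members with ASXL1, 7 with O-GlcNAc and 3 with FOXK1, against 20.0% of genome positions within 5 kb of an ASXL1 peak, 20.8% of an O-GlcNAc peak and 6.37% of a FOXK1 peak. The same 3 genes had a peak of each list within 5 kb, as did 2.94% of genome positions. These shares describe the genome as a whole, most of which is not gene start, and the share over all gene starts was not computed because no hg19 annotation was used here.

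The starts are shown as RefSeq gives them on GRCh38.p14 for the 6 genes with an entry (RPL5 has none), to show the pyrimidine runs at the starts of these genes. Whether these are base for base the hg19 starts used for the peaks was not determined. Each sequence runs 5′ to 3′ on the transcribed strand from 60 bases before the listed start to base 20 of the transcript, and capitals mark the unbroken run of C and T that holds the first transcribed base.
RPLP0, chr12:120201092-120201171, minus strand: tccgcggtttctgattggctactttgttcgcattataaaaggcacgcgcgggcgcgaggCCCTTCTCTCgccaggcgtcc
RPL3, chr22:39319604-39319683, minus strand: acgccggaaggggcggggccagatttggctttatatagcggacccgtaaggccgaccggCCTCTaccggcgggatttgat
RPL11, chr1:23691746-23691825, plus strand: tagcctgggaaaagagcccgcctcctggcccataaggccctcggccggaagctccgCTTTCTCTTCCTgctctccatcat
RPS3, chr11:75399458-75399537, plus strand: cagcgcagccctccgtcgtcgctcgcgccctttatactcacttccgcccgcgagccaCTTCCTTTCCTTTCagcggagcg
RPS6, chr9:19380217-19380296, minus strand: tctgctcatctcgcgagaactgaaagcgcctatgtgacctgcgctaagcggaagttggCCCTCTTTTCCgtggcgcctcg
RPS24, chr10:78033803-78033882, plus strand: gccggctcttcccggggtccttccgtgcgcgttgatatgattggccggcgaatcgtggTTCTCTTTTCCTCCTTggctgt

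The run of pyrimidines was 5 bases long in RPL3, 10 in RPLP0, 11 in RPS6, 14 in RPS3 and 16 in RPS24, and 12 in RPL11 at the start shown. Of the 35116 RefSeq promoters in the table, 9.60% had such a run of at least 5 bases and 2.90% one of at least 10. RPL11 has 2 listed starts, and the downstream one was used, a choice made after the sequences were seen. The other begins with A and so has a run of 0 bases, which leaves 5 genes whose run does not depend on that choice. The motif matches given next were the same in both RPL11 entries. The GRCh38.p14 positions belong to these sequences alone. All peak positions are on hg19, and none was converted.

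Short motifs of other factors were searched on both strands in the 300 bases of the same entries, from 250 before the start to base 50. The forkhead core TGTTTAC or TGTTTGC was in none of the 6, including RPS3 and RPS24 with a FOXK1 peak at the start, and in 7.17% of all promoters. The ETS core CCGGAAG was in RPL3, RPL11 and RPS6, against 10.3% of all promoters. The GABP form ACTTCCG, which can overlap CCGGAAG on the other strand, was in RPS3 and RPS6 (6.83% of all promoters). In RPS6 it occurred 3 times, 1 of them overlapping CCGGAAG. The SP form CCGCCC was in RPL3, RPS3 and RPS6 (45.0%), the YY1 core AAGATGG in RPS3 alone (5.84%), and the E box CACGTG in none (7.26%). A match describes letters in this window, not a bound site.

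The ASXL1 peaks over the starts were among the highest-scoring of their list. A score is the value that the authors' peak caller gave a peak. It is comparable only within a list, and the lowest deposited value was 50. The members' scores ran from 1568 to 3100 with a median of 2210, where the whole ASXL1 list had a median of 74.2. For O-GlcNAc the scores over the starts ran from 326 to 1327 with a median of 702, against a list median of 67.1. For FOXK1 they were 67.7, 103 and 114, against a list median of 76.3, so these 3 peaks sat within the ordinary range of their list.

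**Figure D1:**
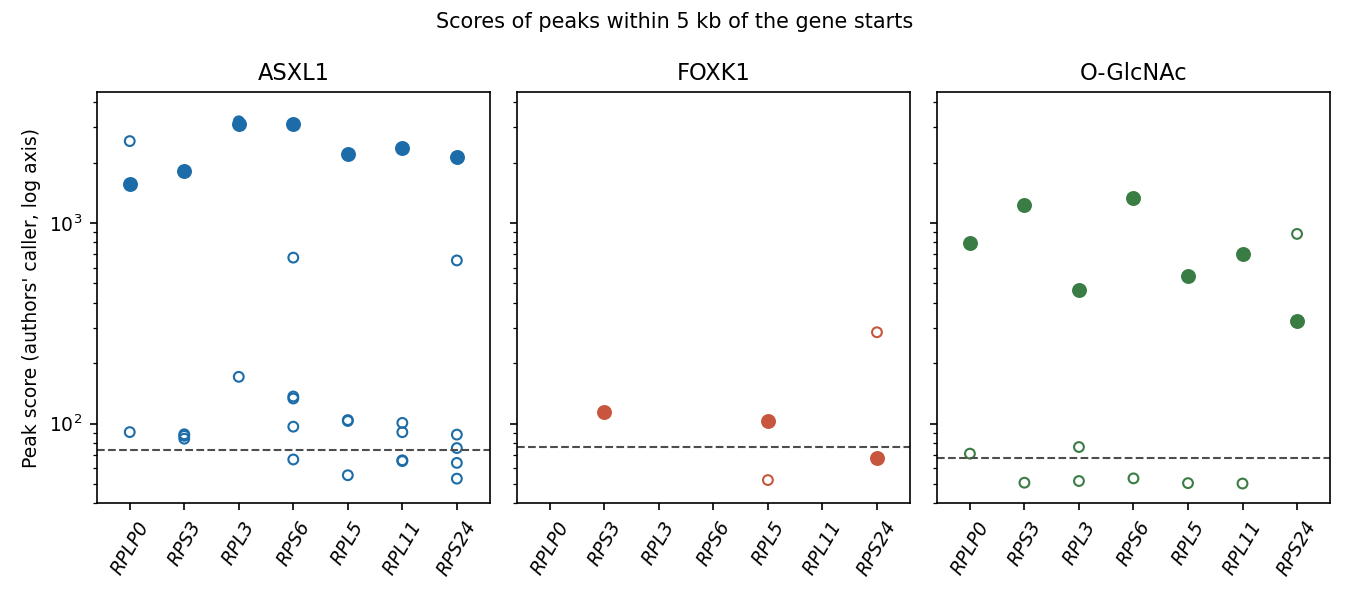
Scores of all peaks within 5 kb of the 7 gene starts, on a log axis, with 1 panel per list; filled points are peaks over the start, open points the other peaks, and the dashed line is the median of the whole list. Every filled ASXL1 point (1568 to 3100) and O-GlcNAc point (326 to 1327) lies far above its line, while the FOXK1 points at the start (67.7 to 114) lie around theirs.

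Among the proteins of the large subunit, RPLP0 forms the base of the ribosomal stalk that recruits translation factors. Its start at chromosome 12 position 120638910 lay under an ASXL1 peak at chr12:120637556-120639646 with a score of 1568, a score that 1.95% of the ASXL1 list reached. The O-GlcNAc peak at chr12:120638663-120639434 scored 796 and lay wholly inside the ASXL1 peak. No FOXK1 peak was listed within 5 kb. RPLP0 thus had the lowest ASXL1 score over a start of the 7 genes.

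RPL3 lies close to the centre of the ribosome where peptide bonds form. Its start at chromosome 22 position 39715670 was covered by an ASXL1 peak of 1648 bp at chr22:39714844-39716491, with a score of 3100. That value is shared by 304 ASXL1 peaks, with 34 above it. The 304 cannot be ranked among themselves, and whether the 34 are stronger than they are was not determined. The O-GlcNAc peak at chr22:39715259-39716027 scored 464 and again lay inside the ASXL1 peak. No FOXK1 peak was listed near RPL3. RPL3 combined the tied highest ASXL1 score with the second lowest O-GlcNAc score of the 7 starts.

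RPL5 and RPL11 bind 5S ribosomal RNA together and can restrain MDM2, the ubiquitin ligase of p53, when ribosome assembly fails. At RPL5 (start at chromosome 1 position 93297594) the ASXL1 peak chr1:93297321-93298538 scored 2210, the O-GlcNAc peak chr1:93297262-93298300 scored 544 and the FOXK1 peak chr1:93297258-93298176 scored 103. At RPL11 (start at chromosome 1 position 24018269) the ASXL1 peak chr1:24017867-24018884 scored 2367 and the O-GlcNAc peak chr1:24017962-24018954 scored 702. RPL5 and RPL11 were thus next to each other in the order of both scores, and RPL5 alone of the pair had a listed FOXK1 peak.

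In the small subunit, RPS3 sits at the channel where messenger RNA enters. At its start (chromosome 11 position 75110562) the ASXL1 peak chr11:75110318-75111158 scored 1824 and the O-GlcNAc peak chr11:75110103-75110889 scored 1230. The FOXK1 peak chr11:75110258-75110856 scored 114, which 28.0% of the FOXK1 list reached, and it was the highest FOXK1 score over any of the starts. The FOXK1 peak lay wholly inside the O-GlcNAc peak.

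RPS6 is the substrate of S6 kinase downstream of mTOR. At its start (chromosome 9 position 19380235) the ASXL1 peak chr9:19379873-19380637 scored 3100 and the O-GlcNAc peak chr9:19379911-19380622 scored 1327, the highest O-GlcNAc score of the 7 starts, which 0.938% of that list reached. No FOXK1 peak was listed within 5 kb. The start with the highest O-GlcNAc score and a tied highest ASXL1 score thus had no FOXK1 peak listed.

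RPS24 is needed to process the precursor of small-subunit ribosomal RNA, and mutations in it cause Diamond-Blackfan anaemia. At its start (chromosome 10 position 79793518) the ASXL1 peak chr10:79793165-79793939 scored 2134 and the O-GlcNAc peak chr10:79793186-79793950 scored 326, the lowest of the 7. The FOXK1 peak chr10:79793022-79794220 was 1199 bp wide and scored 67.7, which 59.6% of its list reached.

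RPS24 also had a second place held by all 3 lists, upstream of its start. There the ASXL1 peak chr10:79789021-79789813 scored 651, the O-GlcNAc peak chr10:79789005-79789786 scored 883 and the FOXK1 peak chr10:79789042-79790021 scored 285. The O-GlcNAc and FOXK1 scores were above those over the RPS24 start, and the ASXL1 score was below. In the RefSeq gene order of GRCh38.p14, the next protein-coding gene upstream is POLR3A, the largest subunit of RNA polymerase III, on the opposite strand. Where POLR3A starts on hg19 was not determined here. This was the only place upstream of any member, beyond 1 kb and within 5 kb, with a peak of any list.

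ASXL1 and O-GlcNAc scores did not follow each other over the 7 starts. Spearman's rho between ASXL1 and O-GlcNAc scores was −0.0541 (n = 7 genes), a description of 2 libraries that share a preparation and an input. The 3 starts with a FOXK1 peak had ASXL1 scores of 1824, 2210 and 2134, inside the range of 1568 to 3100 of the other 4. Their O-GlcNAc scores of 1230, 544 and 326 reached below the range of the other 4, which ran from 464 to 1327, and overlapped it.

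The 3 of 7 starts with FOXK1 were set beside strong ASXL1 places in general. Of all ASXL1 peaks, 10.5% overlapped a FOXK1 peak. Of the 1839 ASXL1 peaks that scored 1568 or more, as the members' start peaks did, 41.3% overlapped a FOXK1 peak and 93.4% an O-GlcNAc peak. Of the 4602 O-GlcNAc peaks that scored 326 or more, 42.1% overlapped a FOXK1 peak. The members' 3 of 7 for FOXK1 and 7 of 7 for O-GlcNAc were near these shares, so at this level the starts looked like other strong ASXL1 peaks.

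At each start the peaks of the lists lay on top of each other. The O-GlcNAc and ASXL1 peaks overlapped by 572 bp (RPS3) to 980 bp (RPL5), and at RPLP0, RPL3 and RPS6 the O-GlcNAc peak lay wholly inside the ASXL1 peak. The FOXK1 peaks shared 539 to 856 bp with the ASXL1 peak and 599 to 915 bp with the O-GlcNAc peak. ASXL1 peaks over the starts had a median width of 1018 bp against 269 bp for the list, O-GlcNAc peaks 772 against 231 bp, and FOXK1 peaks 919 against 437 bp. In the direction of transcription, ASXL1 peaks reached a median of 402 bp before the start and 615 bp past it, and O-GlcNAc peaks 357 and 411 bp. The centre of the ASXL1 peak lay downstream of the start in 6 of 7 genes, RPS6 being the exception, and that of the O-GlcNAc peak in 4 of 7.

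Beside the starts, ASXL1 peaks lay almost wholly on the transcribed side. Within 5 kb, 23 of the 24 ASXL1 peaks that did not cover a start lay downstream of it, and the 1 upstream peak was that of RPS24. At a score of at least 100 the numbers were 9 downstream and 1 upstream, and among the 10000 highest-scoring ASXL1 peaks 3 and 1, so most of the downstream count came from peaks of lower score. Each of the 7 genes had 2 to 5 downstream ASXL1 peaks. O-GlcNAc, from the same preparation and input, had 6 downstream and 2 upstream peaks, and FOXK1 1 of each.

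**Figure D2:**
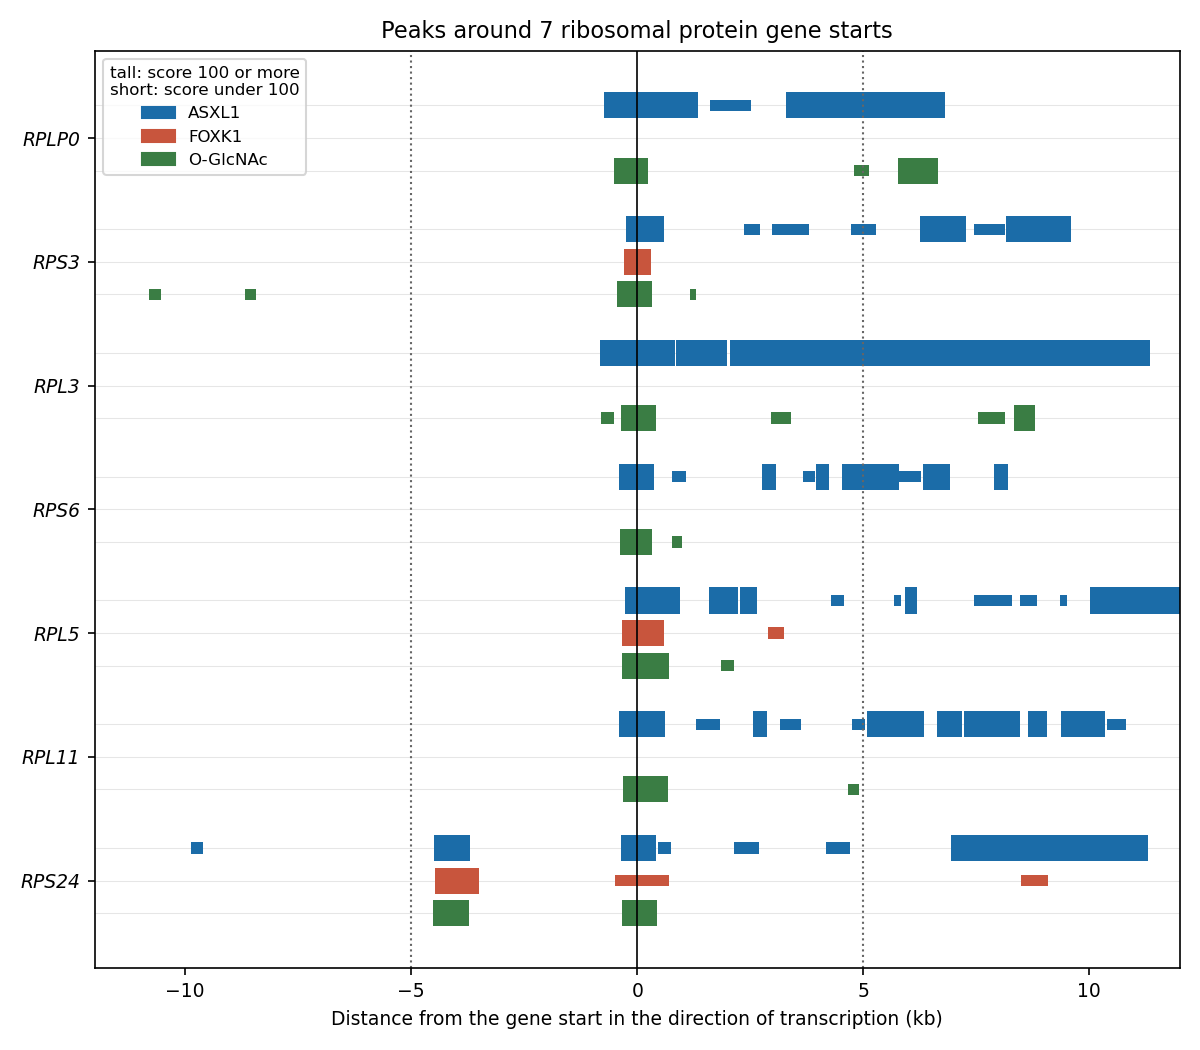
Extent of every listed peak around the 7 gene starts, with distance in kb in the direction of transcription; each gene has 3 lines (ASXL1, FOXK1 and O-GlcNAc from top to bottom), tall bars score 100 or more, short bars less, and dotted lines mark 5 kb. ASXL1 bars run to the right of every start, 23 of the 24 beside a start within 5 kb, while of the O-GlcNAc bars within 5 kb 7 cover a start and 8 lie beside one, 7 of these 8 being short.

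The sides also differed in the length that peaks covered. From 1 to 5 kb downstream, ASXL1 peaks covered 13699 of 28000 bp over the 7 genes (48.9%), and from 1 to 5 kb upstream 793 bp (2.83%), all at RPS24. RPL3 gave the most, 3949 bp, and the other 6 genes together still had 9750 bp. In that stretch O-GlcNAc peaks covered 4.79% downstream and 2.79% upstream, and FOXK1 peaks 1.21% and 3.50%. Within 1 kb of the start ASXL1 peaks covered 61.9%, O-GlcNAc peaks 45.4% and FOXK1 peaks 19.4%. The lists differ in length and unknown depth, so the levels are not comparable between lists, while the sides of a gene are compared within 1 list.

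**Figure D3:**
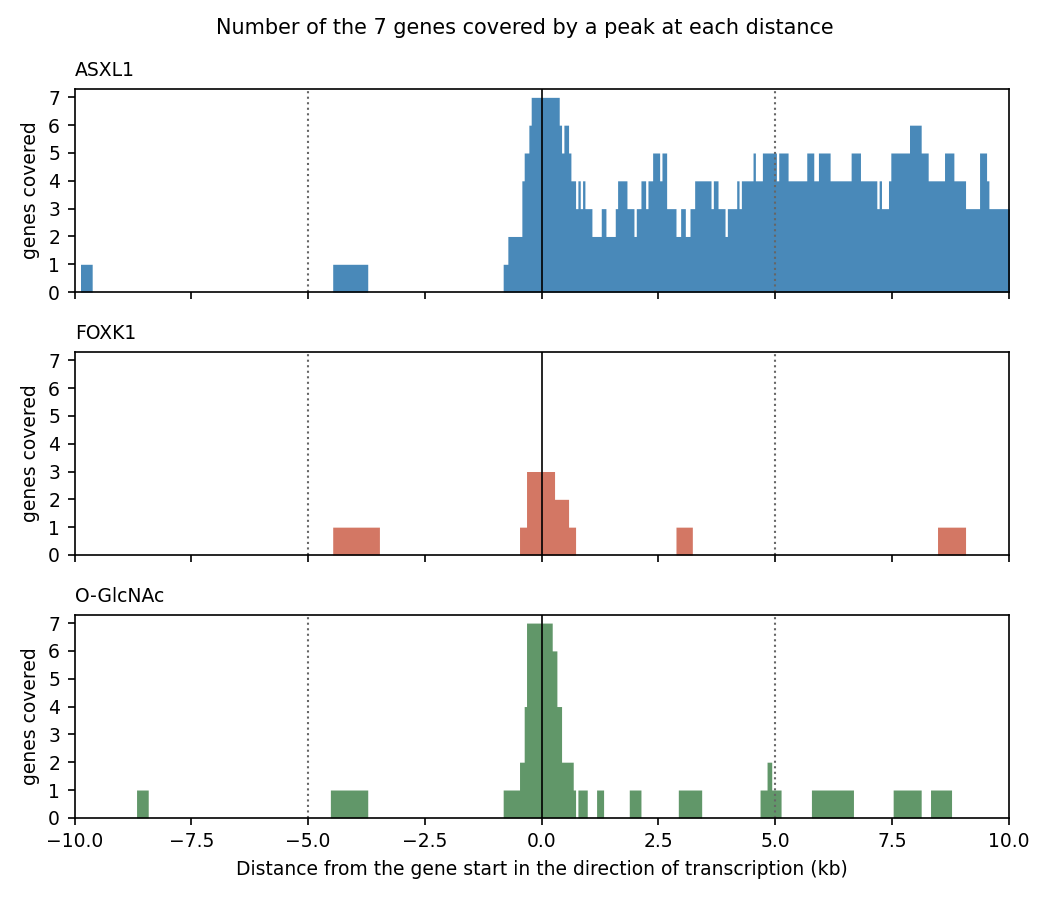
Number of the 7 genes covered by a peak at each distance from the start, in kb in the direction of transcription, with 1 panel per list and dotted lines at 5 kb. From 1 to 10 kb downstream, ASXL1 peaks covered 2 to 6 of the 7 genes at every position read, against 0 or 1 upstream, while O-GlcNAc covered at most 2 and FOXK1 at most 1 on either side.

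The downstream ASXL1 peaks differed much in score. RPL3 had the highest-scoring, 9296 bp wide at chr22:39704330-39713625 with a score of 3214, which only 4 ASXL1 peaks reached, itself included, and 7 were at least as wide. Since 304 ASXL1 peaks share a score of exactly 3100, whether 3214 marks a stronger peak than those was not determined. Between this wide peak and the start lay a further ASXL1 peak that scored 171. RPL3 holds 4 snoRNA genes (SNORD83B, SNORD83A, SNORD139 and SNORD43), small RNAs that guide modification of ribosomal RNA, per RefSeq. The wide peak held an O-GlcNAc peak with a score of 76.4 inside the 5 kb window.

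RPLP0 had a downstream ASXL1 peak of 3504 bp at chr12:120632107-120635610 with a score of 2562, above the 1568 over its start. The next protein-coding gene downstream in GRCh38.p14 is GCN1, an activator of the stress kinase GCN2, on the same strand. Where GCN1 starts on hg19 was not determined here. RPS6 had 5 downstream ASXL1 peaks with scores of 66.3, 137, 96.6, 133 and 672 going away from the start. Its next downstream protein-coding gene, DENND4C, lies on the opposite strand.

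At the other 4 genes no downstream ASXL1 peak within 5 kb scored above 104, and 9 of these 14 peaks scored above the list median of 74.2. They scored 84.1 to 88.5 at RPS3, 55.3 to 104 at RPL5, 65.1 to 101 at RPL11 and 53.2 to 88.2 at RPS24. Over all 7 genes, 14 of the 24 ASXL1 peaks beside a start scored under 100, as did 67.0% of the ASXL1 list, and the median of the 24 was 90.7. RPS3 and RPL5 hold 2 snoRNA genes each, and RPL11, RPS6, RPLP0 and RPS24 none in RefSeq. RPL5 also overlaps the gene DIPK1A in RefSeq, so its downstream peaks lie in a stretch that may belong to both genes.

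Of the 8 O-GlcNAc peaks beside a start, 7 scored under 100, from 50.3 at RPL11 to 76.4 at RPL3, and the remaining one was the upstream RPS24 peak. Of the whole O-GlcNAc list 78.8% scored under 100, and 3 of the 8 peaks were above the list median. Of these 8 O-GlcNAc peaks, 7 overlapped an ASXL1 peak, and the exception was at RPS3 (score 50.8). FOXK1 had a downstream peak at RPL5 with a score of 52.3, which 92.7% of its list reached, and it overlapped neither other list.

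Crowding of ASXL1 peaks was read in the same way at other strong ASXL1 places, counting further ASXL1 peaks within 5 kb of the peak centre. The 7 start peaks had 2 to 5 further peaks each, with a median of 3, and all 7 had at least 2. Of the 1839 ASXL1 peaks scoring 1568 or more, 46.9% had at least 2, and the median was 1. All further peaks lay on 1 side of the start peak in 6 of the 7 members, and in 39.6% of the 862 strong peaks with at least 2, the members among them. This reading takes no direction of transcription, and the members with more further peaks had more ways to be on both sides. The strong peaks are of unknown gene content, and some share their neighbours.

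The 5 kb limit passed through these runs of peaks. The peak nearest to it on the inside was an O-GlcNAc peak of RPLP0 whose near edge lay 4802 bp from the start (score 70.9), and the nearest on the outside was an ASXL1 peak of RPL11 at 5083 bp (score 312).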

How the data were processed

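ChIP-seq peak lists of 3 libraries (ASXL1, FOXK1, O-GlcNAc; 1 per antibody) were used; the 2 inputs were not analysed here. The submitters' processing notes name Bowtie2 2.0.0, MACS 1.4 and hg19, and settings and filters are not given in the sources used here. Each deposited score is that of the authors' peak caller, from 50 upward, in the form of 10 times a negative log10 p. Per the labels' protocols, fixation was in 1% formaldehyde (10 min), and 18 PCR cycles followed.

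Distances run from the given hg19 start to the nearest peak edge, with positions counted from 1. Overlap means at least 1 bp. Genome shares used positions every 1 kb up to the highest peak end per chromosome, gaps included. Strand came from RefSeq, and for RPL5 from general knowledge. Functions were tested on simulated peaks. Python 3.11.15, numpy 2.4.6 and scipy 1.17.1 were used.

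All 7 members and each of their peaks are named or counted. The members and lists were chosen with earlier results of these data known, and the side of the start and crowding were examined after the peaks were seen. Other ribosomal protein genes, other mRNAs with a 5′ terminal oligopyrimidine tract, ribosome assembly and mitochondrial ribosomal protein genes were not placed, since no hg19 annotation was used here. Alternatives were windows of 1, 2 and 10 kb, scores of 100 or more, only the top 10000 peaks by score, peak centres, and overlap of 50% of the shorter peak.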

Additional observations from a re-analysis of the deposited data

How the results depend on the processing

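The members held by each list (7 ASXL1, 3 FOXK1, 7 O-GlcNAc), those held by all 3 (3), and those with overlapping peaks (7 for O-GlcNAc with ASXL1, 3 for either pair with FOXK1) kept their numbers under each alternative run. At a score of at least 100 and among the 10000 highest-scoring peaks, RPS24 kept its FOXK1 entry through its upstream peak alone, and the starts under a FOXK1 peak were 2, not 3. The counts of starts under a peak, and of peaks on either side of a start, were put through these settings after the data had been looked at. No paired analysis was possible because there was a single library of each kind, and leaving a library out removes its list. The counts for other ribosomal protein genes were not run. Smaller windows and shorter lists must give fewer peaks and lower genome shares, and beyond that the cause was not tested. Values below are for ASXL1, FOXK1 and O-GlcNAc in that order.

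With 1 kb in place of 5 kb there were 10, 3 and 9 peaks near the members, and genome shares of 6.20%, 1.71% and 5.56%. With 2 kb, ASXL1 had 13 peaks and FOXK1 3, and the shares were 10.2%, 2.95% and 9.84%. With 10 kb, ASXL1 had 49 peaks, and the shares were 31.7%, 11.4% and 34.8%. A score of at least 100 left 17, 3 and 8 peaks and shares of 7.77%, 2.34% and 5.18%. The 10000 highest-scoring peaks left 11, 3 and 8 and shares of 3.22%, 3.12% and 3.25%.

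ASXL1 peaks downstream and upstream of a start numbered 3 and 0 within 1 kb, 6 and 0 within 2 kb and 40 and 2 within 10 kb. There were 9 downstream at a score of at least 100 and 3 among the 10000 highest-scoring, with 1 upstream in both. The best score fell from 2562 to 1568 for ASXL1 at RPLP0 with 1 kb, 2 kb or peak centres. At RPS24 it fell from 285 to 67.7 for FOXK1 and from 883 to 326 for O-GlcNAc with 1 or 2 kb. Depth is not known for any library here, which limits what a gene without a listed peak can show.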

Other observations

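The ASXL1 peaks went on past the 5 kb window. From 5 to 10 kb downstream they covered 61.0% of the stretch over the 7 genes, and 16351 bp in the 6 genes other than RPL3, against 0.737% from 5 to 10 kb upstream. O-GlcNAc peaks covered 5.85% and 0.706% of the same stretches, and FOXK1 peaks 1.68% and 0%. RPS24 had an ASXL1 peak of 4356 bp at chr10:79800464-79804819 with a score of 3100, above the 2134 over its start, and a FOXK1 peak that scored 66.1 lay inside it. At RPL11 the ASXL1 peaks with a near edge 5083 to 9376 bp downstream scored 157 to 348, a last one at 10380 bp scored 53.9, and those within 5 kb scored 65.1 to 101. At RPS3 the ASXL1 peaks that began 6264 and 8159 bp downstream scored 319 and 349, and one between them at 7441 bp scored 76.9. At RPL5 the 5 ASXL1 peaks that began 5686 to 9353 bp downstream scored 58.9, 140, 79.2, 88.2 and 62.8 going away from the start. Beyond 10 kb, RPL5 peaks that began at 10012 and 11435 bp scored 782 and 520. The highest-scoring downstream peak of each of these 4 genes within 12 kb thus lay beyond 5 kb, among peaks of low and high score. Whether they lie inside the genes or past their ends was not determined on hg19. An O-GlcNAc peak with a score of 505 began 5768 bp downstream of the RPLP0 start, inside the ASXL1 peak that scored 2562.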
